A study of Mus musculus with 4 samples.

Results

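Open chromatin at the clustered protocadherin locus was examined in motor neurons of the cervical spinal cord of mouse embryos. The assay, ATAC-seq, inserts sequencing adapters into accessible DNA with the enzyme Tn5. Members were the genes whose symbol is Pcdha, Pcdhb or Pcdhg followed by a number or by a, b or c and a number, which gave 58 of the 49997 genes of the RefSeq table, all on chromosome 18 between 36930285 and 37841873 (mm10). Open regions were the merged peak intervals of the 4 libraries from 50 kb before the first gene to 50 kb after the last, 65 of 199576 in the genome. Motor neurons were sorted at embryonic day 12.5 by GFP from embryos carrying the ChAT::GFP transgene, which marks cholinergic neurons. There were 2 control libraries and 2 libraries from Hoxa5-deficient littermates (mutant libraries). The labels call these biological replicates and give neither the number of embryos behind each library nor the Hoxa5 allele. With 2 libraries per genotype, spread between replicates rests on a single pair.

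Clustered protocadherins are cell-surface adhesion proteins that bind copies of themselves on other cells, and by them branches of one neuron recognise and avoid each other. In the alpha and gamma groups each variable exon has its own promoter and encodes the outer part, the membrane span and part of the inner part of a protein, and is spliced to constant exons shared by the whole group. Beta genes are single exons. A neuron uses only a few of the alternate promoters, while the C-type genes at the distal ends of alpha and gamma are used more uniformly across neurons. CTCF and cohesin bring active promoters to enhancers that lie near the alpha constant exons and beyond the gamma constant exons.

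Library 1 and 2 held 115089 and 113505 peak intervals in controls, and 127458 and 138248 in mutants. Depth was not stated. A measure that follows depth, the lowest local background solved from the peak values, was 5.43 and 4.39 tags for controls and 5.14 and 6.06 tags for mutants. Peaks lay within 1 kb of the start of 8 of 10 motor neuron markers in all 4 libraries, among them Chat, Isl1 and Mnx1, with Isl2 at none and Prph in control library 1 alone. Starts of 6 of 6 progenitor, 4 of 6 interneuron and 4 of 4 glial markers also had a peak in all 4 libraries, so open markers of other cell types were present in both genotypes. The interneuron marker Lmx1b was called in each control and in no mutant, where the nearest intervals were 1275 and 1148 bp away. Of 4 endothelial and microglial markers, Cdh5, Pecam1 and Cx3cr1 had no peak in any library. Csf1r, counted at either gene end, was called in each control, with intervals 551 and 396 bp away. It was called in no mutant, where the nearest intervals were 1020 and 1129 bp away, just past the 1 kb limit. Of protein-coding starts outside the locus, 0.292% were called in both controls and neither mutant. Marker strength is given here as the rank of a peak in its own list in percent, 100 being the strongest. Ranks come from lists of different lengths, so they do not show a change between genotypes. In the controls the Lmx1b peaks ranked 57.6 and 63.0 and the Csf1r peaks 7.43 and 24.6. Of the genome's regions found in all 4 libraries, 37.3% ranked higher in both mutants than in both controls and 23.7% lower. Among progenitor markers, Sox2, Pax6 and Hes5 ranked lower in both mutants than in both controls and Olig2 and Hes1 higher, and the 6 had a median rank of 91.4 and 89.9 in the controls against 78.9 and 81.7 in the mutants. Of the 4 interneuron markers, Pax2 and Lbx1 ranked lower in both mutants and none higher, with medians of 64.7 and 53.5 in the controls against 39.4 and 52.2 in the mutants. Of the 4 glial markers, 3 ranked higher and 1 lower. Of the 8 motor neuron markers, 3 ranked higher (Ret, and Chat and Slc18a3, which share a peak) and 1, Lhx3, lower. The part of these markers in the results below was not tested.

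Open regions were unevenly spread over the locus. The 259 kb of alpha held 16 regions, the 256 kb of beta held 4 and the 180 kb of gamma held 36. No region lay in the 50 kb before alpha. A single region lay between alpha and beta, 2 lay between beta and gamma, and 6 lay in the 50 kb after gamma. Of the 65 regions, 29 (44.6%) had a peak in all 4 libraries, where the whole genome had 33%, and 23 (35.4%) in 1 library, where the genome had 38.9%. The 9 regions outside the alpha, beta and gamma bodies were found in all 4 libraries in 8 cases, against 5 of 16 in alpha, 0 of 4 in beta and 16 of 36 in gamma. Strength is given below in 2 ways. One is the number of tags piled up at the strongest summit. The other is the percentile of that summit among all summits of the same library, ranked by the authors' −log10 p.

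**Figure D1:**
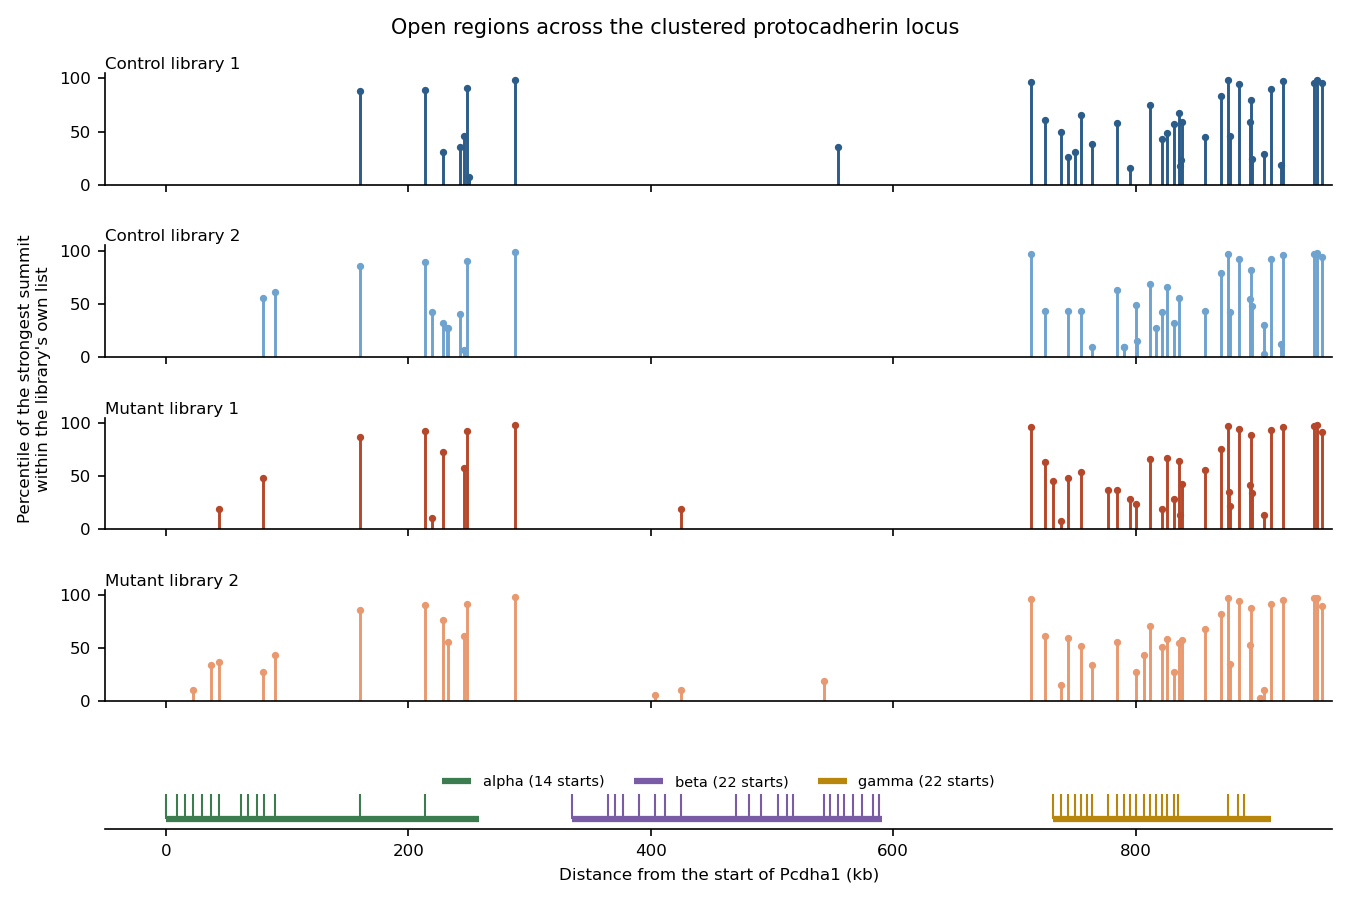
Each line is an open region, placed by its distance in kb from the start of Pcdha1, and its height is the percentile of its strongest summit within that library's own list; the lowest panel marks the 14 alpha, 22 beta and 22 gamma starts. The 4 libraries show tall lines at the alpha C-type starts, in the gap after alpha and from the end of gamma onward, and an almost empty beta group.

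Alternate alpha promoters were mostly without a peak. In sorted pools of cells a weak peak cannot tell a site open in few cells from one weakly open in many. Of the 12 alpha genes that are not C-type, 7 had no peak within 1 kb of the start in any library: Pcdha1, the first gene of the locus, Pcdha2, Pcdha3, Pcdha5, Pcdha8, Pcdha9 and Pcdha10. None of the 12 had a peak in all 4 libraries. Pcdha11 had a peak in 3 libraries, with 24 tags in control library 2, 23 in mutant library 1 and 19 in mutant library 2. Pcdha12 had 27 tags in control library 2 and 25 in mutant library 2, with percentiles of 60.7 and 43.8. These 2 genes are the alternate promoters nearest to the C-type genes. Pcdha7 was called in both mutants and in neither control, with 15 and 22 tags, but from different intervals, with summits 6 bp before and 590 bp after the start. Pcdha4 and Pcdha6 were called in mutant library 2 only, with 15 and 21 tags. Mutant library 2 thus had peaks at 5 of the 12 starts, against 0 and 2 in controls and 2 in mutant library 1. It also had the highest background of the 4 libraries, 6.06 tags. Control library 1, with 0 such starts, had 5.43 tags, and mutant library 1, with 2, had 5.14. The part of background in these counts was not tested.

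The beta group had the fewest open starts. Of 22 beta genes, 18 had no peak at the start in any library, the first gene Pcdhb1 and the last gene Pcdhb22 among them, and none had one in all 4. Pcdhb8 was called in both mutants, with 15 tags in each at percentiles of 18.8 and 10.3, and in neither control. Pcdhb17 was called in control library 1 with 19 tags. Pcdhb6 and Pcdhb15 were called in mutant library 2 with 14 and 17 tags. These beta peaks lay between percentiles 6.08 and 35.0. Variable exons are close copies of each other, and how reads matching several copies were placed is not given in the sources used. Presence or absence of a peak at a single beta gene, or at a single alternate alpha or gamma gene, is therefore uncertain. Counts by group are made of the same calls, and the part of read placement in the differences between groups was not tested.

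Most gamma starts had a peak in some library. Of 22 gamma genes, 20 had a peak at the start in at least 1 library, 10 had one in all 4, and Pcdhgb2 and Pcdhgc5, the last gene of the locus, had none. Among the 19 gamma genes that are not C-type, 12 and 12 starts had a peak in controls and 13 and 12 in mutants. The 8 alternate genes found in all 4 libraries were Pcdhga3, Pcdhga4, Pcdhga7, Pcdhgb6, Pcdhgb7, Pcdhga11, Pcdhga12 and Pcdhgb8, which RefSeq lists as a transcribed pseudogene. Their percentiles ran from 18.8 to 75.1. Pcdhgb6 was the strongest, with 48 and 34 tags in the controls and 35 and 51 in the mutants, so the genotypes overlapped.

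Another 10 alternate gamma starts were open in 1 to 3 libraries. Pcdhga2 lacked a peak in control library 2 alone and had 24 tags in control library 1 and 13 and 16 in mutants. Pcdhga5 lacked one in mutant library 1 alone and had 20 and 12 tags in controls and 21 in mutant library 2. Pcdhgb5 lacked one in control library 1 alone and had 21 tags in control library 2 and 16 and 19 in mutants. Pcdhga8 was called once in each genotype, with 15 tags in control library 1 and 17 in mutant library 1. The remaining 6 were each found in a single library: Pcdhgb1 in control library 1, Pcdhgb4 and Pcdhga10 in control library 2, Pcdhga1 and Pcdhga6 in mutant library 1, and Pcdhga9 in mutant library 2. Tags at these 6 starts ran from 12 at Pcdhgb4 to 25 at Pcdhga9. No gamma start was open in both libraries of one genotype and neither of the other.

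Of the 5 C-type genes, 4 had a strong peak at the start in all 4 libraries. Pcdhac1 had 92 and 65 tags in the controls and 78 and 99 in the mutants, at percentiles from 85.8 to 88.3. Pcdhac2, the last alpha gene, had 140 and 116 tags in the controls and 202 and 226 in the mutants. Both mutants lay above both controls at Pcdhac2 in tags, and its percentiles were 89.4 and 89.3 in controls against 92.9 and 90.6 in mutants. Pcdhgc3 had 389 and 283 tags in the controls and 321 and 429 in the mutants, and its percentiles of 97.0 to 98.3 were the highest at any clustered protocadherin start. Pcdhgc4 had 223 and 151 tags in the controls and 228 and 296 in the mutants. Pcdhgc5 had no peak within 1 kb in any library. The lowest percentile at an open C-type start, 85.8, lay above the highest at any other start, 75.1. Tags are not scaled for depth, and ranks come from lists of different lengths, so neither shows a change between genotypes.

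**Figure D2:**
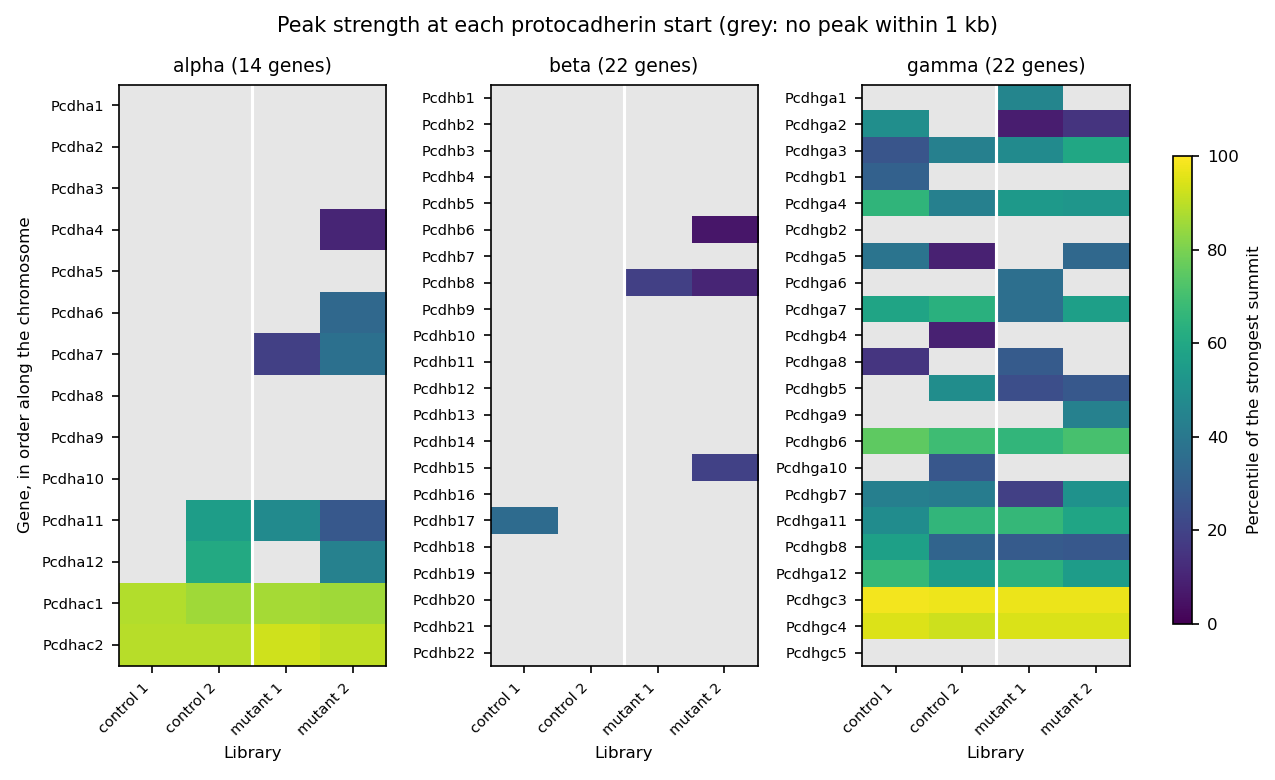
Rows are the 58 genes in order along the chromosome, columns the 4 libraries, and colour gives the percentile (0 to 100) of the strongest summit within 1 kb of the start, with grey for no peak. The 4 open C-type genes are bright in each library, gamma is patchy, and beta is nearly all grey.

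Counts of open protocadherin starts were set beside those of other genes. A peak was found in all 4 libraries at 12 of 58 starts (20.7%), against 60.5% of 17492 other protein-coding starts. No library had a peak at 27 starts (46.6%), against 34% of the others. Peaks in 1 to 3 libraries were found at 19 starts (32.8%), against 5.41% of the others. Peak strength moved with this difference, and its part in it was not tested. Among starts with a peak in any library and none above percentile 75.1, the highest value of an alternate member, 55.4% of 1580 other genes had peaks in 1 to 3 libraries, against 19 of 27 members that are not C-type (70.4%). By group these were 10 of 18 in gamma (55.6%), close to the other genes, 5 of 5 in alpha and 4 of 4 in beta. The alpha and beta starts reached percentiles of at most 60.7 and 35.0. Starts open in controls alone made up 0 of 58, with 0.292% among other genes, and starts open in mutants alone 2 of 58 (Pcdha7 and Pcdhb8), with 0.492% among other genes. Neither start was open in mutants alone when only peaks with a −log10 q of at least 5 were kept, and only Pcdha7 was with equal peak numbers. The difference between the members and other genes was not tested.

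The non-clustered delta protocadherins, single adhesion genes of the same family, had a peak at the start in all 4 libraries at 8 of 9 genes. The nearest interval to the start of Pcdh9 was 1126 to 1271 bp away. Their percentiles ran from 73.0 at Pcdh11x to 97.8 at Pcdh8, a range that overlaps the C-type genes and lies mostly above the alternate genes. For Pcdh1 and Pcdh11x either end of the gene was counted, since no strand was at hand.

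**Figure D3:**
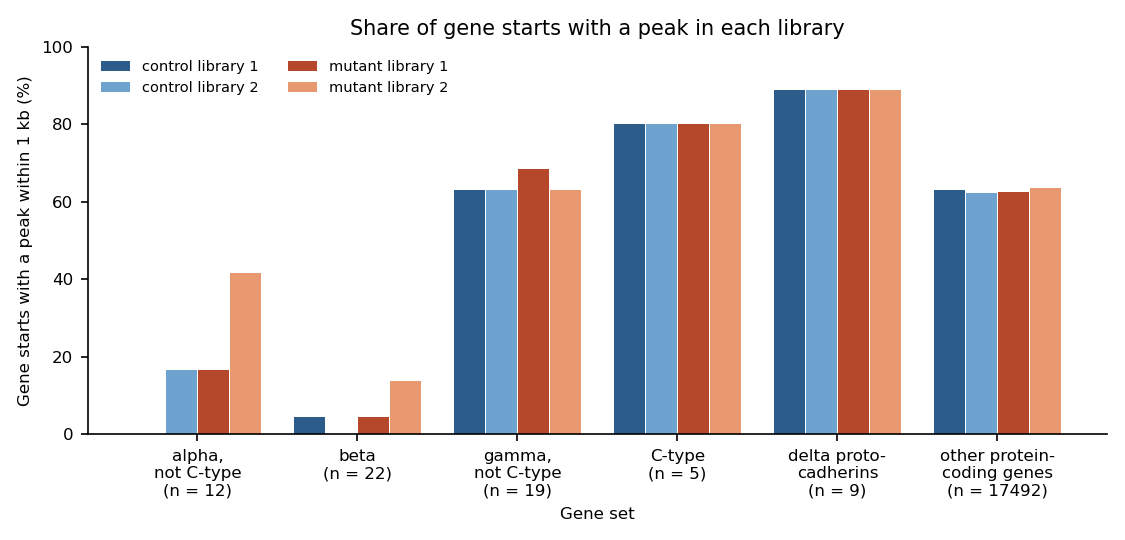
Bars give the percentage of gene starts with a peak within 1 kb in each library, from a baseline of 0, for alpha, beta and gamma alternate genes, C-type genes, delta protocadherins and 17492 other protein-coding genes, with no error bars since each bar is 1 library. The C-type and delta bars stand at 80 and 88.9 in each library, and beta stays at or under 13.6.

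Summits were taken only from peaks within 1 kb of a start, and within that limit they lay close to the annotated starts. Over the 79 peaks at 31 members, the strongest summit was at a median of 29 bp before the start (quartiles 71 bp before and 136 bp after), and 72 of 79 lay within 300 bp. At Pcdhgc3 the 4 summits were 80, 72, 71 and 68 bp before the start, close together in both genotypes. At Pcdhgc4 they were 277, 275, 283 and 267 bp after it, and at Pcdhga12 from 309 to 341 bp after it. Pcdhac1 summits lay 174 to 220 bp before the start. At Pcdhac2 the strongest of several summits differed, at 223, 214 and 130 bp after the start in 3 libraries and at 619 bp in mutant library 2.

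**Figure D4:**
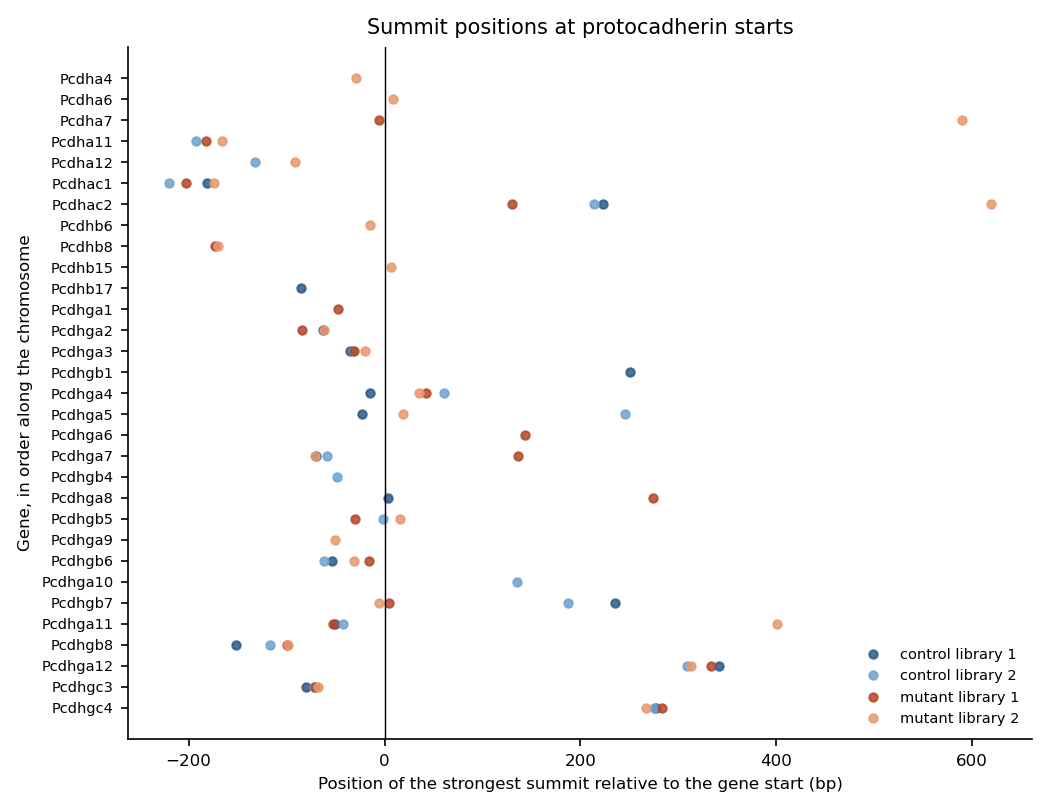
Each point is the strongest summit of 1 library at 1 of the 31 protocadherin starts with a peak, and the horizontal axis is its distance in bp from the annotated start, negative before it. Most points gather within 300 bp of 0, and the 4 libraries fall nearly on each other at Pcdhgc3 and Pcdhgc4.

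By its lowest percentile over the libraries, the strongest region of the locus was not at a promoter. It lay in the gap between alpha and beta, at chr18:37217178-37218550, 28.3 kb after the last annotated alpha base and 46.4 kb before Pcdhb1. It had 405 and 362 tags in the controls and 397 and 503 in the mutants, with percentiles from 98.0 to 98.6. No RefSeq protein-coding gene other than long readthrough models that join alpha to gamma spans this gap. RefSeq gives gene spans here without exons, so exons and introns could not be told apart.

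Beyond gamma, 5 of 6 regions were found in all 4 libraries. One of 1729 bp at chr18:37841401-37843129 covered the shared gamma end, with 150 and 141 tags in the controls and 187 and 214 in the mutants. Each of the 22 gamma genes ends there or within about 1 kb, while no alpha or beta gene had a peak within 1 kb of its upper end in any library. The other 4 lay inside Diaph1, the neighbouring gene of an actin-nucleating formin. Of these, chr18:37879727-37880544, 37.9 kb after gamma, was the second strongest region of the locus by its lowest percentile, with 482 and 387 tags in the controls and 470 and 544 in the mutants, the most tags of any region here. The region at chr18:37877135-37877652 had 335 tags in each control and 369 and 497 in mutants. The region at chr18:37851927-37852549, 10.1 kb after gamma, had 308 and 220 tags in the controls and 243 and 282 in the mutants. The last, at chr18:37883454-37883850, had 298 and 203 tags in the controls and 183 and 217 in the mutants, with percentiles of 95.5 and 93.9 against 91.1 and 89.98.

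Between beta and gamma the stronger region, at chr18:37643696-37644642, overlapped an end of Taf7, a gene of the general transcription machinery. It had 239 and 206 tags in the controls and 217 and 323 in the mutants. The weaker one, at chr18:37655514-37656064, had 19 to 38 tags. The other neighbour in this gap, Slc25a2, encodes a mitochondrial carrier.

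After the last alpha start, the stretch that leads to the shared alpha end held 8 regions, 3 of them in all 4 libraries. The strongest, at chr18:37178219-37179009, lay 10.7 kb before the last alpha base and had 132 and 100 tags in the controls and 155 and 192 in the mutants. The corresponding gamma stretch held 6 regions, 3 of them in all 4 libraries. Its strongest, at chr18:37824841-37825600, had 75 and 70 tags in the controls and 117 and 141 in the mutants. Here too the mutants lay above the controls, with percentiles of 79.3 and 82.1 against 89.0 and 87.6.

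Of the 29 regions found in all 4 libraries, 8 (27.6%) had a higher percentile in both mutants than in both controls, where the genome had 37.3%, and 7 (24.1%) a lower one, where it had 23.7%. The widest gap was at chr18:37158723-37159386, in the alpha stretch 13.9 kb after the end of the Pcdhac2 promoter region. It had 18 and 16 tags in the controls and 43 and 66 in the mutants, and the deposited fold enrichment was 2.95 and 3.16 against 7.17 and 8.89. Percentiles were 30.9 and 32.1 in controls and 72.3 and 76.8 in mutants, so the groups did not overlap on any of these scales. The lower mutant lay 40.2 percentile points above the higher control, against 12.5 points in the region with the next widest gap of this kind, and 887 of the 65789 regions found in all 4 libraries across the genome had a gap at least as wide. The region was singled out after its values were seen, and 2 libraries per genotype cannot give an exact permutation p under 0.3333. The next region after it found in all 4 libraries, chr18:37176223-37176601, had 34 and 18 tags in the controls and 43 and 59 in the mutants. Between them lay 3 regions not found in all 4, of which chr18:37172303-37172896 went the other way, with 19 and 18 tags in the controls and no peak in either mutant.

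**Figure D5:**
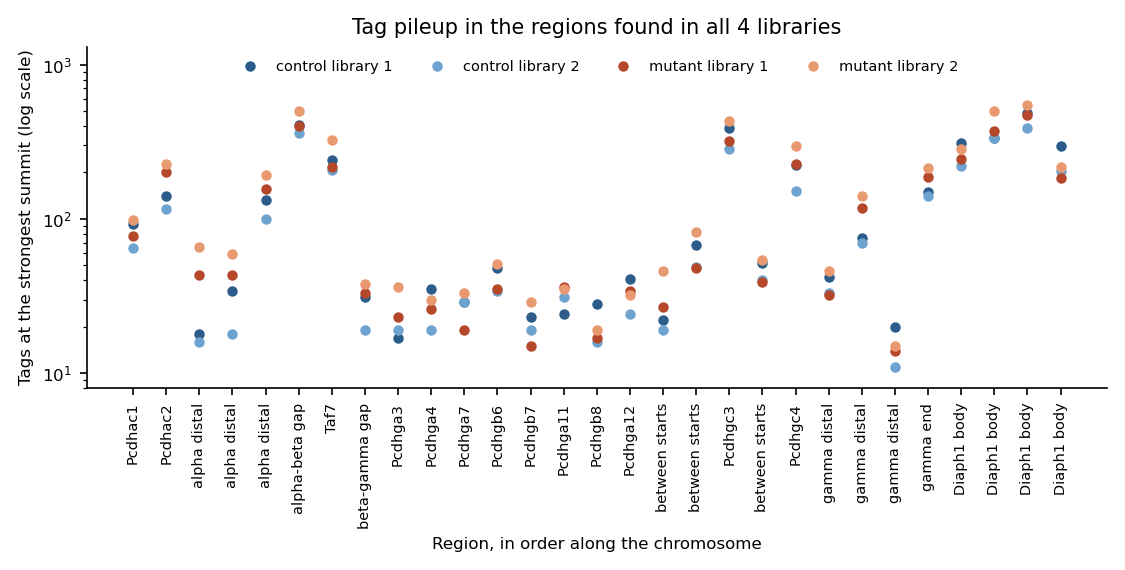
Points give the tags at the strongest summit (log scale) of the 29 regions found in all 4 libraries, in order along the chromosome and coloured by library, with names for the gene start or stretch. Alternate gamma starts lie between 15 and 51 tags, and C-type starts and the alpha-beta gap, gamma end and Diaph1 regions lie at 65 or more. Both mutants lie above both controls at the first alpha distal region, and also at several others, Pcdhac2 and the gamma end among them. Tags are not scaled for depth.

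Regions found in a single genotype were few. There were 2 control-only regions (3.08% of 65), called in both controls and neither mutant, where the genome had 3.42%, and 1 mutant-only region (1.54%), where it had 10.3%. One control-only region, chr18:37172303-37172896, lay in the alpha stretch after Pcdhac2 with 19 and 18 tags, and the other, chr18:37849646-37849960, lay in Diaph1 with 32 and 25 tags. The mutant-only region was the one at Pcdhb8, chr18:37355032-37355182, with 15 tags in each mutant. These 3 regions had percentiles of 40.3 or less. Restricting the lists to a −log10 q of at least 5 left no control-only region and 1 mutant-only region, the alpha distal one at chr18:37158723-37159386. With equal peak numbers per library the Pcdhb8 region was no longer mutant-only.

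Of 3 totals for the locus, regions and covered length overlapped between genotypes and open starts did not. Regions numbered 41 and 44 in controls and 42 and 44 in mutants (42.5 ± 2.12 against 43 ± 1.41, SD, n = 2 each; two-sided exact permutation p = 1). With equal peak numbers per library they numbered 41 and 44 in controls and 38 and 37 in mutants, without overlap and in the other direction (exact permutation p = 0.3333, the smallest possible). Covered length was 22.4 and 21.9 kb in controls and 22.1 and 24.3 kb in mutants (exact permutation p = 0.667). Starts with a peak numbered 17 and 18 in controls and 20 and 24 in mutants (17.5 ± 0.707 against 22 ± 2.83, SD, n = 2 each). That difference of 4.5 starts had an exact permutation p = 0.3333, the smallest this design allows, and an adjusted p of 1 over the 3 values tested. It was 1.5 starts with equal peak numbers, and 0 when only peaks with a −log10 q of at least 5 were kept. Among 17492 other protein-coding starts, 63.2% and 62.3% had a peak in controls and 62.7% and 63.5% in mutants, so the genotypes overlapped there. In the whole genome the mutants had more regions, 122736 and 133896 against 109746 and 106783, so the locus held 0.0374% and 0.0412% of a control's regions and 0.0342% and 0.0329% of a mutant's.

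Within the locus, the shares of regions in common overlapped between pairs of one genotype and pairs across genotypes. Of the regions found in either library, 63.5% were shared by the controls and 65.4% by the mutants, and from 60.4% to 66% by the 4 pairs across genotypes. In the whole genome the same shares were 57.8% and 63.6% within genotypes and 47.4% to 51.3% across. The pairs share libraries, so these shares are a description without a test.

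The genes that regulate the cluster were themselves mostly open. Of 18 listed regulators, 14 had a peak at the start in all 4 libraries, where 60.5% of other genes had one, among them Ctcf, the insulator protein that binds protocadherin promoters and enhancers, the cohesin genes Smc1a and Smc3, and Smchd1 and Dnmt3b, which act in silencing and methylation of the cluster. Percentiles at Ctcf were 97.8 and 98.4 in controls and 98.3 and 98.6 in mutants. Rad21, Stag1 and Nipbl, also genes of cohesin and its loader, had no peak within 1 kb. The nearest interval to Rad21 was 1328 to 1474 bp away. For Stag1 it was 1883 and 1874 bp away in controls and 1129 and 1089 bp in mutants. For Nipbl it was 1604 and 2871 bp away in controls and 13978 and 13930 bp in mutants. Wapl, which releases cohesin, was called in both mutants only, yet its nearest interval began 1059 and 1008 bp from the start in controls and 949 and 927 bp in mutants, just to either side of the 1 kb limit. Of 9 listed signalling partners, 7 were open in all 4 libraries, including the kinase genes Fyn and Ptk2 and Cyfip1 and Cyfip2 of the WAVE complex. Ptk2b was called in 1 library of each genotype and Abi2 in none.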

How the data were processed

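Per the submitters' processing notes, the build was mm10 and the tools were MACS2 2.2.4, SAMtools 1.9, FastQC 0.11.9 and Bowtie2 2.3.4.3. Parameters, filters and any Tn5 shift are not given in the sources used. The deposited lists, 1 per library, give interval and summit positions, a score equal to 10 times −log10 p and capped at 1000, a fold enrichment ratio, and a −log10 p-value and −log10 q-value for each summit. They end at −log10 p of about 2.00, and the numbering of each list skips 323 to 363 peaks. Fold and p are the authors' values and describe peaks within a list.

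A whole tag pileup per summit was solved from fold and p in Python 3.11.15 with SciPy 1.17.1; 100% of 20000 summits per library matched within 0.001. Intervals sharing 1 bp were merged. Gene spans came from RefSeq GRCm38.p6, the assembly behind mm10; strands of other genes came from the RefSeq promoter table, and either end was counted for genes without one. Members were read as starting at their lower coordinate. Regions were assigned by midpoint, with 1 kb before the first start of a group counted to it. No model across regions was fitted, since a list holds no counts where no peak was called. Exact permutation tests covered 3 values, with Benjamini-Hochberg adjustment. Merging, start matching and pileup solving were tested on simulated data. Named were members with peaks in 1 to 3 libraries, C-type genes, first and last genes, the 3 strongest per group, genotype-specific regions, and the strongest regions; further regions were chosen after their values were seen. Members and gene lists were chosen with earlier results of these data known. Alternatives were a −log10 q of 5 or more, equal peak numbers, other flanks of 0 and 100 kb, summit windows of 100 bp on each side, coverage of at least 50% of a region, start windows of 500 bp and 2 kb, leaving out each library, and pairing by number.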

Additional observations from a re-analysis of the deposited data

How the results depend on the processing

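The 4 open C-type starts had a peak in each library under the alternatives tried for starts, and beta had no start open in each library under any of them. Start windows of 500 bp and 2 kb left the pattern of 58 of 58 members as it was, equal peak numbers that of 53, and −log10 q of 5 or more that of 38, where gamma starts open in all 4 libraries went from 10 to 6. The mutant minus control difference changed direction for regions with equal peak numbers (-5) and for covered length (-0.046 kb), and was 0 for starts with −log10 q of 5 or more. Leaving out 1 library gave differences from -1 to 2 regions, from -0.002 to 2.22 kb and from 2.5 to 6.5 starts, from 2 to 8 control-only and from 3 to 8 mutant-only regions, since a genotype then needs only 1 library. Control-only regions were 2 at first, then 0 with −log10 q of 5 or more, 1 when 50% of a region had to be covered and 1 without flanks, and mutant-only regions were 0 with equal peak numbers. With the replicate block, pairing libraries by number, the differences of 0.5 regions, 1.11 kb and 4.5 starts had exact permutation p of 1, 1 and 0.5, and 0.5 is the smallest possible. Same-numbered libraries alone shared 1765 and 2434 regions of the genome and differently numbered ones 2909 and 1685, so no pairing was seen in these counts, which also move with the length of the lists. Depth was not stated. A peak of 12 to 15 tags lies close to the limit of the lists, so a missing peak there is not evidence of closed chromatin.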
